A study of Mus musculus with 2 samples.

Results

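Connexins and pannexins, the proteins that form gap junctions and large-pore membrane channels, were followed in the striatum of Cx30 KO mice and WT mice after MPTP. The members are 9 genes, namely *Gjb6* (Cx30), *Gjb2* (Cx26), *Gja1* (Cx43), *Gjb1* (Cx32), *Gjc3* (Cx29), *Gja4* (Cx37), *Gjd2* (Cx36), *Panx1* and *Panx2*, out of 37008 gene names on the array. They were taken as every probe other than a control whose annotated gene name equals one of these symbols, which gave 21 probes. The question was whether the other gap junction genes were higher or fell together with *Gjb6* in mice that lack Cx30. Every value compares 1 array of WT mice with 1 array of Cx30 KO mice on day 1 after MPTP, a toxin that damages nigrostriatal dopaminergic neurons. For each array, total RNA from the striata of 2 male mice of 8 weeks had been pooled. All mice of both groups had received MPTP, as 4 injections of 20 mg/kg at 2 h intervals. By the labels the WT mice were of the strain C57BL/6J and the Cx30 KO mice of the strain Cx30-LacZ, whereas the methods describe WT controls that were bred from heterozygous animals. Strain background and genotype therefore cannot be told apart. No array of mice without MPTP was used here, so no value measures the response to the toxin.

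Connexins assemble into a channel in the membrane of one cell, which docks with its counterpart in a neighbouring cell and lets ions and small molecules pass. In the brain, astrocytes are coupled mainly by Cx43 and Cx30, and Cx26 is known from some astrocytes and from the meninges. Oligodendrocytes express Cx32 and Cx29, certain neurons use Cx36, and arterial endothelium uses Cx37 and Cx40. Pannexins resemble connexins in shape but act mostly as channels to the outside of the cell, through which ATP is released. The Cx30-LacZ allele is known to carry a *lacZ* reporter in place of the Cx30 coding sequence, and the animals lack Cx30 in every cell from birth.

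Each probe is a DNA strand of 60 bases printed in 1 spot, and its value is the background-subtracted signal of that spot in arbitrary units. The symbol ± marks the error that the scanner software estimates for the spot, which leaves out all variation between mice. Log2 ratios are Cx30 KO minus WT after the arrays had been brought to a common 75th percentile, and a negative ratio means a lower signal in Cx30 KO. There are no replicates, so the genotypes could not be tested against each other and the precision is limited by the number of arrays. A probe or gene met the study's criteria for higher signal when its Z-score reached 2.0 and its ratio reached 1.5, and those for lower signal when they were no higher than −2.0 and 0.66. The methods name no set of probes for the Z-score, so here it was measured against the 1000 probes of most similar signal. The median log2 ratio of all genes tested was 0.03, the SD of a log2 ratio between single spots was 0.07, and that between different probes of a gene was 0.26. Each gene is represented by its brightest probe unless its probes are named.

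The sequences below, read from the array files in the direction of the transcript, show where the probes behind the main results lie. Those of *Gjb6* come first because they tell which part of the transcript each reading covers. One lies close to the start of the coding sequence (chr14:57743530-57743589 of mm9, minus strand, transcript NM_001271663) and is given in full. The other begins 1304 bases downstream (chr14:57742226-57742285, NM_001010937), and for it and for the single probes of *Gjb2* and *Gjb1* only the first 30 bases are printed.
Gjb6, near the coding start: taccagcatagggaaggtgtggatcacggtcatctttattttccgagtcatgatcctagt
Gjb6, downstream: ttcattggacaatatacattgccgattgct
Gjb2: caagttgaaccattaccactatgccttatg
Gjb1: tccccagttcccaaggcccctctctctgca

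*Gjb6*, the targeted gene, was lower in Cx30 KO at both probes. The downstream probe had a signal of 1788 ± 179 in WT against 111 ± 11.6 in Cx30 KO. This was a log2 ratio of −3.94 ± 0.21 and a Z-score of −11.9, and it left 6.51% of the WT value, which was still well above background. The probe near the coding start had 79.0 ± 9.53 in WT and 4.68 ± 4.69 in Cx30 KO, where it was not well above background. Its signal was at least 4.33-fold lower, counted against the dimmest signal that was well above background on that array, and its log2 ratio was −1.02 with normexp background correction. The exact limits of the deleted part are not given in the sources used here. The downstream probe lies past the coding sequence and so does not by itself check the deletion, whereas the probe near the coding start does.

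Of the 21 probes, 16 rose well above background on 1 or both arrays and were tested, 15 of them on both arrays, and 5 were at background on both. No member probe (0) was saturated and no spot of a member (0) was marked as an outlier. Of the 16 probes, 4 met the criteria for lower signal, against 2.93% of all probes tested, and 0 met those for higher signal, against 2.08%. These 4 include both probes of the deleted gene. Counted by gene, *Gjb6*, *Gjb2* and *Gjb1* met the criteria for lower, which is 3 of 9 genes or 2 of the 8 genes other than *Gjb6*, against 3.39% of all genes. For higher, 0 of 9 genes met them, against 2.38%. The same shares of all genes are the background for the counts in the gene lists below. The log2 ratio was below 0 in 6 of the 9 genes and above 0 in 3, and the median of the 8 genes without *Gjb6* was −0.22. No member met the criteria in the direction opposite to *Gjb6*, but with only 2.38% of all genes higher a count of 0 among 9 says little. Falls were found in some members and not in others.

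**Figure D1:**
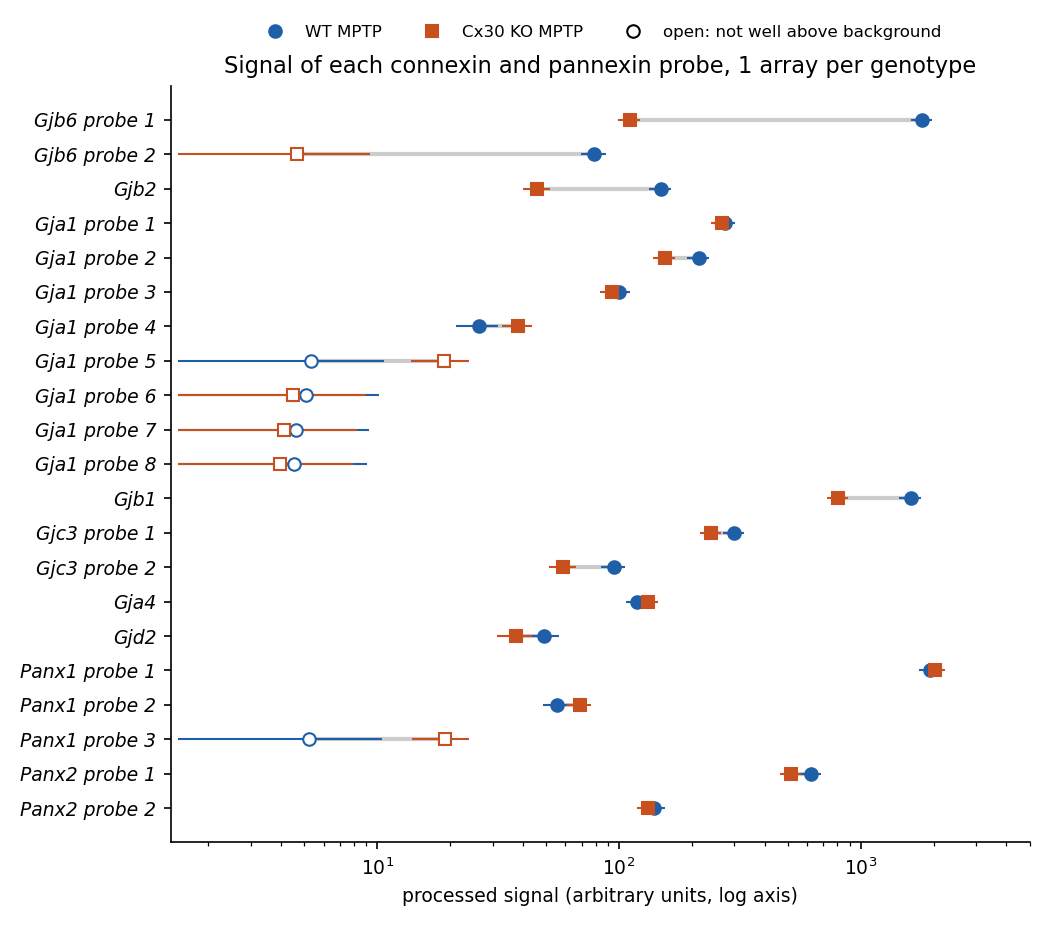
Processed signal in arbitrary units on a log axis for each of the 21 probes, with WT as blue circles and Cx30 KO as orange squares. Whiskers are the scanner software's error of the spot, cut at the left edge of the axis, and open symbols were not well above background. Among probes detected in WT, *Gjb6*, *Gjb2* and *Gjb1* show the widest gaps, whereas the symbols of *Gja4*, of *Panx2* and of the brightest probes of *Gja1* and *Panx1* lie close together.

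Among the connexins of astrocytes, *Gjb2* went down with *Gjb6* and *Gja1* did not. *Gjb2* encodes Cx26, which can form mixed channels with Cx30, and its single probe (NM_008125, chr14:57717629-57717688) had a signal of 149 ± 15.5 in WT against 45.9 ± 5.91 in Cx30 KO. The level was 3.09-fold lower, with a log2 ratio of −1.63 ± 0.24 and a Z-score of −3.82. This gap exceeds the error of the spots by several times, but only a single probe reports it. With normexp background correction the ratio of this dim probe was −0.93, and it met the criteria in all 12 alternative settings.

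*Gjb2* and *Gjb6* are neighbours on chromosome 14, with 24.5 kb between the *Gjb2* probe and the nearest *Gjb6* probe. The array has 27 genes with a probe within 0.5 Mb of those of *Gjb6*, of which 21 were tested. Apart from *Gjb6*, 0 of 20 met the criteria for higher, against 2.38% of all genes, a share at which this count says little. Those for lower were met by 2 of 20, against 3.39% of all genes. Both lie on the same side, downstream of *Gjb6*: *Gjb2*, and the predicted gene *Gm4491* at 10.8 kb. *Gm4491* had 23.9 in WT and 4.17 in Cx30 KO, where it was not well above background, so its fall was at least 1.31-fold, and it met the criteria in 6 of 11 alternatives, with a log2 ratio of −0.39 under normexp correction. *Gm10871*, between *Gjb2* and *Gm4491*, had a log2 ratio of −0.06, and *Cryl1*, the next gene on the other side at 150.4 kb, had 0.03. *Gja3*, the lens connexin Cx46 at 87.4 kb, was at background on both arrays. The lower values were thus found in *Gjb2* and *Gm4491*, with a probe at −0.06 between them. Whether the altered *Gjb6* allele acts on its neighbours was not tested.

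*Gja1*, which encodes Cx43, has 8 probes along 12.8 kb of chr10, and 4 of them were well above background on both arrays. The brightest (NM_010288, chr10:56108488-56108978 in split alignment) had a signal of 274 ± 27.8 in WT against 267 ± 27.0 in Cx30 KO, giving a log2 ratio of 0.03 ± 0.21. The probe near the 5′ end (chr10:56097212-56097271) had 99.8 ± 10.8 and 93.8 ± 10.1, a log2 ratio of −0.02 ± 0.22. At these probes the genotypes differed by less than the error of the spots. The probe nearest the 3′ end (chr10:56109814-56109873) had 213 ± 21.9 in WT and 154 ± 16.1 in Cx30 KO, giving a log2 ratio of −0.39 ± 0.21. The probe for the model transcript XM_011243119, which spans a splice junction, was dim, with 26.4 ± 5.25 and 38.2 ± 5.54, a log2 ratio of 0.60 ± 0.35 that came to 0.22 with normexp correction. None of the 4 met the criteria (0 of 4), and their log2 ratios spanned 1.00. Among 541 genes with 4 probes well above background on both arrays the median span was 0.46, and 39 spanned at least as much as *Gja1*. The remaining 4 probes, all for alternative transcripts, were at background on both arrays. Thus the brightest and the 5′ probe of *Gja1* were level, the 3′ probe was lower and the junction probe higher, with no common direction. Across the alternatives the ratio of *Gja1* ranged from −0.01 to 0.06 and turned negative with scaling by the median only.

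**Figure D2:**
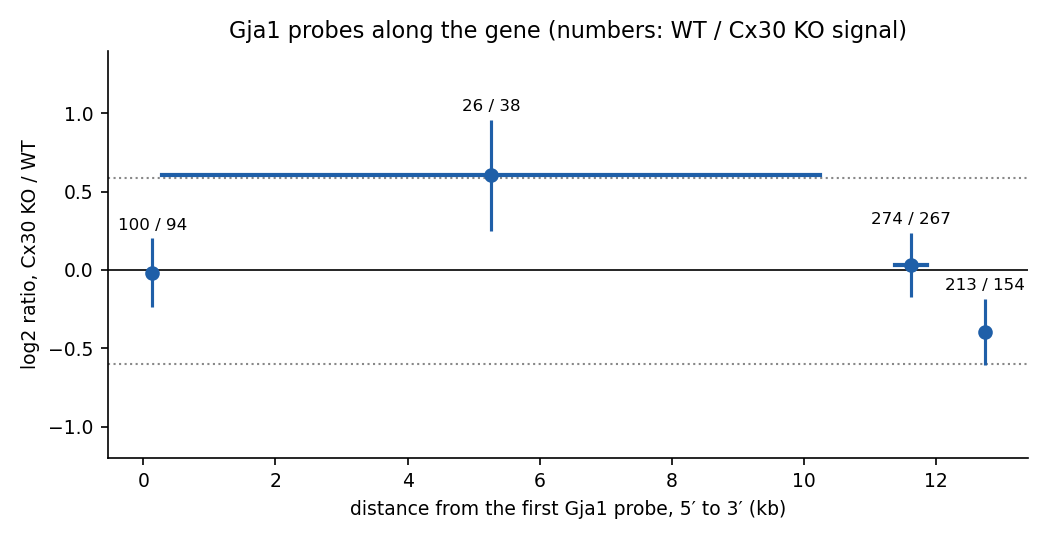
Log2 ratio of Cx30 KO over WT for the 4 detected *Gja1* probes against their distance in kb from the first *Gja1* probe. Whiskers are the scanner software's error, horizontal bars mark the stretch over which a split probe aligns, printed numbers are the WT and Cx30 KO signals, and dotted lines mark ratios of 0.66 and 1.5. The ratios run from −0.39 at the 3′ end to 0.60 at the dim junction probe, and both probes with ratios of 0.03 and −0.02 sit on the zero line.

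Most astrocyte markers did not share the fall of *Gjb2*. Of 12 markers all were well above background, 9 were lower and 3 higher, and the median log2 ratio was −0.15. Their summed signal was 187452 in WT against 165303 in Cx30 KO, most of it from *Aldoc* (117041 and 106181). *Aqp4*, the water channel of astrocyte endfeet, met the criteria for lower (−0.95 at its brightest probe, −1.56 as the mean of its probes, and 3 of its 4 probes), and 0 of the others did. With quantile normalisation, scaling by the median or the authors' normalised values 2 of the 12 met them, and with the Z-score over all probes or ratio limits of 2 and 0.5 it was 0. At the brightest probe of each gene *Gjb2* (−1.63) lay below all 12 markers. It also lay below all 8 detected markers of the leptomeninges, whose median was 0.05 with summed signals of 54410 and 46074. The lowest *Aqp4* probe, at −4.24, lay below *Gjb2*, and the mean of the *Aqp4* probes, −1.56, was close to it. At its brightest probe *Gja1* (0.03 ± 0.21) lay above 11 of the 12 astrocyte markers, with *Sox9* (0.03) and *Slc1a3* (0.01) close below it. Its 3′ probe, at −0.39, lay below the median of these markers, so the rank depends on the probe. In pooled tissue a fall can mean fewer cells of a type or less RNA per cell, and these cannot be told apart.

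The oligodendrocyte connexins *Gjb1* and *Gjc3* had lower signals in Cx30 KO, and *Gjb1* alone of them met the criteria. *Gjb1* encodes Cx32, a connexin of myelin sheaths that pairs with astrocytic Cx30. Its probe (NM_008124, chrX:98580902-98580961) had 1606 ± 161 in WT and 805 ± 80.6 in Cx30 KO. The level was 1.90-fold lower, with a log2 ratio of −0.92 ± 0.20 and a Z-score of −3.34. It met the criteria in 10 of 12 alternatives. It failed them with the Z-score over all probes (−1.58) and with ratio limits of 2 and 0.5.

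*Gjc3* encodes Cx29, which lies in the innermost myelin layer and is thought not to build junctions between cells. Its probes were shown apart because one lies inside the coding sequence (chr5:138398873-138398932), and the other, which begins 3836 bases away, at the 3′ end (chr5:138395037-138395096, minus strand, both for NM_080450).
Gjc3, coding: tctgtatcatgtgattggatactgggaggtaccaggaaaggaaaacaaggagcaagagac
Gjc3, 3′ end: ttgatgtgatgtatgtgcctgctcttattg
The coding probe had a signal of 95.5 ± 10.9 in WT against 58.7 ± 7.46 in Cx30 KO, giving a log2 ratio of −0.63 ± 0.25. Its ratio of 0.646 was within the ratio limit, but its Z-score of −1.41 was not within the limit of −2.0. The brighter 3′ probe had 299 ± 30.4 and 240 ± 24.4, a log2 ratio of −0.25 ± 0.21. Both probes were lower in Cx30 KO and neither met the criteria.

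The myelin markers were lower in the same pool. At the brightest probe all 10 oligodendrocyte markers were lower in Cx30 KO, 7 met the criteria, and the median log2 ratio was −0.73. The summed signal was 179326 in WT against 113561 in Cx30 KO. *Mbp*, *Mag* and *Cnp* each had another probe that was higher, at 0.12, 0.24 and 0.19, and all tested probes of the other markers were lower. With the Z-score over all probes 1 of the 10 met them, and with ratio limits of 2 and 0.5 it was 2 of the 10. *Ugt8a*, an enzyme of myelin lipid synthesis, had −1.43, the tight junction gene *Cldn11* had −1.12 and *Mog* had −0.91, and no marker of the list was at background. *Gjb1* lay below 8 of these 10 and above 2, and *Gjc3* lay above 9, which on the log2 scale put *Gjb1* at −0.19 and *Gjc3* at 0.49 from the median of the 10. The 3 precursor markers had a median of −0.35, and 0 of them met the criteria. What part the lower myelin markers have in the values of these connexins was not tested.

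**Figure D3:**
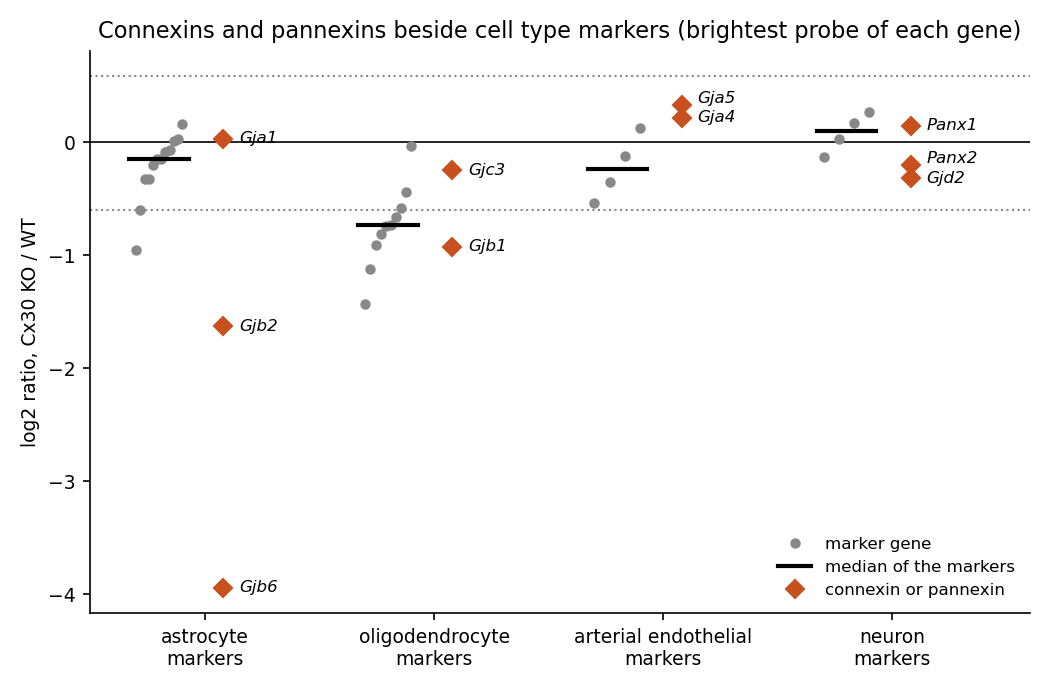
Log2 ratio of Cx30 KO over WT at the brightest probe of each gene, with marker genes of each cell type as grey points, their median as a black bar, and the connexins or pannexins known from that cell type as orange diamonds. Dotted lines mark ratios of 0.66 and 1.5. *Gjb6* and *Gjb2* lie below every marker of their column, *Gjb1* lies within the oligodendrocyte markers, and *Gja1* lies near 0.

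The vascular and neuronal connexins differed between the genotypes by about the error of their spots. *Gja4* encodes Cx37 of arterial endothelium, and its probe (NM_008120, chr4:126988848-126988907) had 119 ± 12.8 in WT and 132 ± 13.8 in Cx30 KO, giving a log2 ratio of 0.22 ± 0.22. *Gja5* encodes Cx40 of the same cells, and the 1 of its 3 probes that was well above background had 39.1 ± 5.65 and 46.9 ± 5.89, a log2 ratio of 0.33 ± 0.28. Both were slightly higher in Cx30 KO and neither met the criteria. Both also lay above all 4 arterial endothelial markers, whose median was −0.24 with summed signals of 2553 and 2397. *Gjd2* encodes Cx36, which couples interneurons electrically, and its probe (NM_010290, chr2:113835432-113835491) had 49.0 ± 7.30 in WT and 37.5 ± 6.05 in Cx30 KO. Its log2 ratio was −0.32 ± 0.32, which equals its error. Of 6 detected interneuron markers, 3 were lower and 3 higher with a median of 0.09, and *Pvalb* met the criteria for lower (−1.27).

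**Figure D4:**
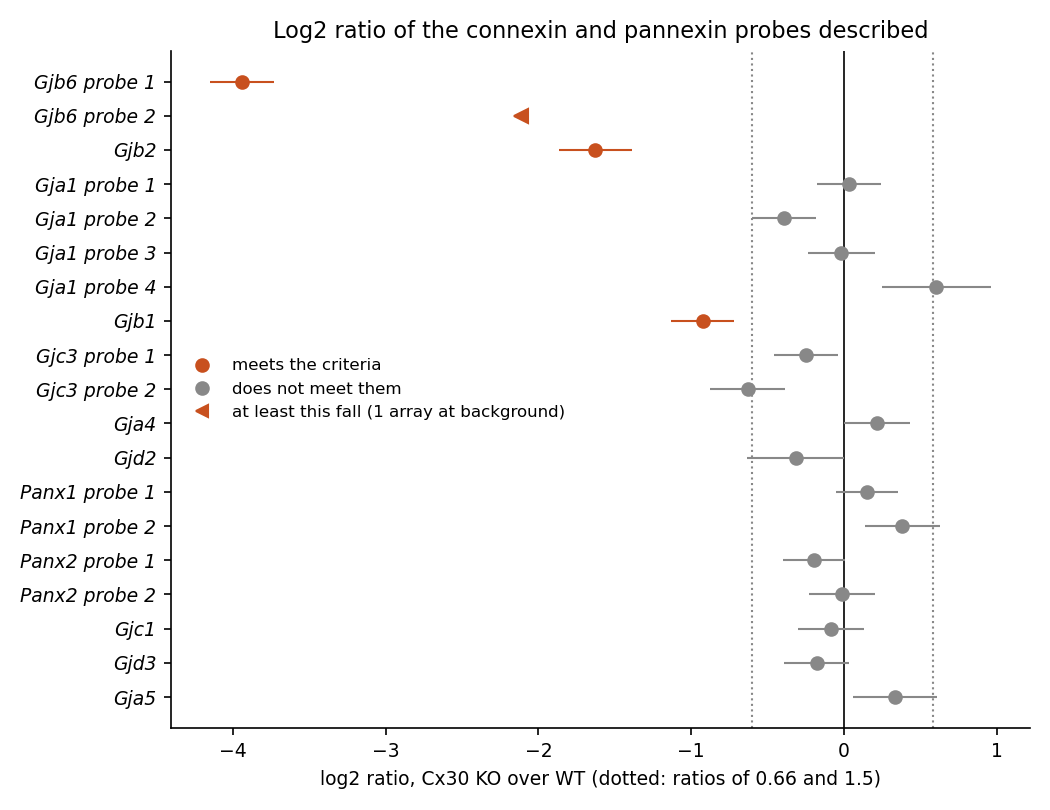
Log2 ratio of Cx30 KO over WT for the 16 member probes tested and the probes of 3 further connexins, with the scanner software's error as whiskers. Probes that met the criteria are orange, and dotted lines mark ratios of 0.66 and 1.5. The triangle marks the *Gjb6* probe that was at background in Cx30 KO. It shows the smallest fall that the lowest detected signal allows on the reported scale. The 4 orange probes all lie on the lower side, and 0 lie on the higher side.

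The pannexins differed little between the genotypes. *Panx1* encodes the widely expressed ATP release channel, and its brightest probe (NM_019482, chr9:14810250-14810309) had 1930 ± 193 in WT and 2037 ± 204 in Cx30 KO, giving a log2 ratio of 0.15 ± 0.20. A dim probe for the non-coding transcript XR_379125 had 55.5 ± 6.94 and 68.8 ± 7.79, a log2 ratio of 0.38 ± 0.24, and its other probe was at background on both arrays. *Panx2* encodes the pannexin of neurons, and its probes for NM_001002005 include one inside the coding sequence, shown because it reads the part that codes for the protein.
Panx2, coding: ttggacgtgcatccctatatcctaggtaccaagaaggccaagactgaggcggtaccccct
This probe (chr15:88899304-88899363) had 140 ± 14.8 in WT and 132 ± 13.9 in Cx30 KO, giving a log2 ratio of −0.01 ± 0.22. The brighter probe downstream (chr15:88900850-88900909) had 622 ± 62.4 and 516 ± 51.7, a log2 ratio of −0.20 ± 0.20. The detected probes of *Panx1* were both higher and those of *Panx2* both lower in Cx30 KO, and 0 of these 4 met the criteria. Of 4 general neuron markers, 1 was lower and 3 were higher, with a median of 0.10.

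Beyond the 9 members the array held other genes of these families, of which 10 are described here and 3 were tested. *Gjc1* (Cx45) had a log2 ratio of −0.09 with signals of 120 ± 12.8 in WT against 108 ± 11.5 in Cx30 KO. *Gjd3* had −0.18 with 146 ± 15.2 and 123 ± 12.8. Neither of them nor *Gja5* met the criteria. The other 7 were at background on both arrays, namely *Gja3*, *Gja6*, *Gja10*, *Gjb5*, *Gjd4*, *Gje1* and *Panx3*. None of these 10 (0 of 10) was detected in Cx30 KO alone. Of the 33910 probes tested on the whole array 32019 were detected in WT, which leaves few seen in Cx30 KO alone. The count of 0 therefore says little about these families.

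**Figure D5:**
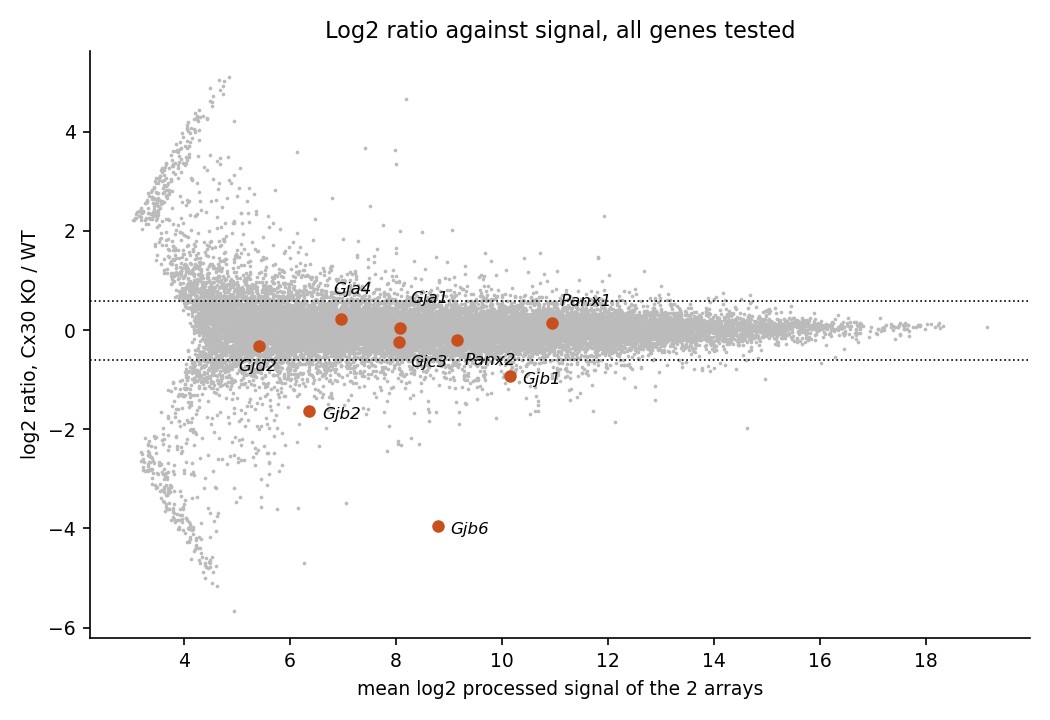
Log2 ratio of Cx30 KO over WT against the mean log2 signal of both arrays for the 22013 genes tested, in grey, with the 9 members in orange. Dotted lines mark ratios of 0.66 and 1.5, and genes seen on 1 array only form the outer arms at low signal. *Gjb6* (−3.94), *Gjb2* (−1.63) and *Gjb1* (−0.92) lie below the band of genes of similar signal, and the other members lie inside it.

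Genes whose products bind, phosphorylate or degrade connexins were mostly level. Of 25 such genes, 24 were tested, 12 were lower and 12 higher, and the median log2 ratio was 0.0031. The criteria for lower were met by 0 of 24, against 3.39% of all genes, so this count says little. The scaffold gene *Tjp1*, whose protein anchors Cx43, had −0.51 without meeting them. The criteria for higher were met by 1 of 24, against 2.38% of all genes. This was *Ccn3*, which encodes a secreted protein that can bind Cx43. *Ccn3* had 45.4 ± 6.21 in WT and 272 ± 27.5 in Cx30 KO. Its log2 ratio was 2.66 and its Z-score 6.34, and it met the criteria in all 12 alternatives, with 1.74 as its lowest ratio under normexp correction. *Tjp3* was at background on both arrays. Of the genes that act with pannexins, the ATP receptor *P2rx7* had −0.46 at its brightest probe but 0.33 at its other. The caspase gene *Casp4* had −0.19, and neither gene met the criteria. Of 7 detected genes for other large-pore channels of the CALHM and LRRC8 families, 2 were lower and 5 higher, with a median of 0.21. *Calhm6*, detected in Cx30 KO only with a signal of 58.6 against 9.97 in WT, was at least 3.12-fold higher and met the criteria, but its log2 ratio was 0.72 under normexp correction.

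Cortical neuron markers moved the same way as *Ccn3*. All 5 were higher in Cx30 KO, 4 met the criteria, and their summed signal was 170 in WT and 1346 in Cx30 KO, with 3 of the 5 not well above background in WT. Of those measured on both arrays, *Neurod2* had a log2 ratio of 3.67 and *Tbr1* had 2.50. *Slc17a7* and *Neurod6* were not well above background in WT. On the reported scale *Neurod6* was at least 3.44-fold higher. *Slc17a7* was 12.1-fold higher, which is its plain ratio and not a minimum, since its WT signal of 20.8 exceeded the lowest detected signal. With detection required on both arrays 2 of the 5 met the criteria, and under normexp correction the log2 ratios shrank to 2.64 for *Neurod2*, 1.97 for *Slc17a7* and 0.84 for *Neurod6*. The part of these cells in the value of *Ccn3* was not tested. The 9 markers of striatal projection neurons had a median of −0.16 with summed signals of 491715 and 485627, and 0 met the criteria.

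The remaining cell types gave the following medians. Of 8 microglia markers 7 were lower and 4 met the criteria, or 1 with the Z-score over all probes or ratio limits of 2 and 0.5, with a median of −0.52 and the lowest ratios in *P2ry12* (−1.69, or −0.83 under normexp correction), *Aif1* (−0.93) and *Tmem119* (−0.90). The 8 endothelial markers had a median of −0.17, with *Flt1* (−0.93) meeting the criteria at its brightest probe but not by the mean of its probes (−0.19), with the Z-score over all probes or with ratio limits of 2 and 0.5, and the 6 mural cell markers had 0.15. The choroid plexus list, with *Kcnj13* and *Aqp1* at background on both arrays, had −0.30 over 4 genes, with *Ttr* (−1.27) meeting the criteria. The 4 ependymal markers had −0.26, with *Ccdc153* (−1.06) meeting them, though not with the Z-score over all probes. In the leptomeninges list *Lum* and *Slc47a1* were at background on both arrays. The microglia markers had a summed signal of 91249 in WT against 83919 in Cx30 KO. After scaling, these sums differed by −0.05 on the log2 scale, and those of the astrocyte markers by −0.11. *Itgam*, the brightest microglia marker and the only higher one, had 60045 in WT and 62438 in Cx30 KO. Thus, by their medians, the pools differed in myelin, microglia and cortical neuron markers, and little in those of astrocytes, blood vessels and striatal projection neurons. By summed signal the microglia markers also differed little, but most of that sum came from *Itgam* alone.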

How the data were processed

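Striatal RNA was hybridised to 2 single-colour arrays, 1 for each genotype. The authors deposited the spot intensities of Agilent Feature Extraction (9.5.1.1 in the submitters' processing notes, 10.7.1.1 in the file header), which had subtracted background and removed spatial trends without normalising between arrays. They also deposited a table of intensities normalised between arrays, used as an alternative only. Control and outlier spots were left out, replicate spots were averaged on the log2 scale, and each array was scaled by its 75th percentile, 401.2 in WT and 381.8 in Cx30 KO. A probe with at least 50% of its spots marked well above background counted as detected, which held in WT for 32019 of 56605 probes and in Cx30 KO for 32961. Probes detected on at least 1 array were tested (33910 probes, 22013 genes). The lowest detected signals, 19.8 in WT and 17.4 in Cx30 KO, served as floor for a probe detected on 1 array, unless its own signal was higher. The Z-score used the mean and SD of the 1000 probes nearest in mean signal among all probes apart from controls. Positions are mm9 as given in the files. No annotation of that build was used, so statements on coding sequence rest on the position within the named transcript and on general knowledge. A RefSeq table (GRCm38.p6) updated the symbols of 2055 probes and served for nothing else.

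The members and gene lists were chosen with earlier results of these data known. Named are all members and relatives, partner and large-pore genes and neighbours of *Gjb6* that met the criteria, and up to 3 genes of a marker list with the largest ratios among those that met them. *Gm10871*, *Cryl1*, *Tjp1*, *Tbr1* and the genes acting with pannexins were named after their values were seen. The lists cover connexin partners, pannexin partners, large-pore channels, and markers of astrocytes, oligodendrocytes and their precursors, endothelial, arterial endothelial and mural cells, microglia, striatal projection neurons, interneurons, cortical and general neurons, choroid plexus, leptomeninges and ependyma. Alternatives were scaling by the median, quantile normalisation alone or after normexp correction with an offset of 50, the authors' normalised values, dim probes kept, detection on both arrays, outlier spots kept, the mean of a gene's probes, Z-scores over all or the 200 nearest probes, and ratio limits of 2 and 0.5. Some genes of the lists are not reported here and were left out of the lists' counts and medians. A Z-score over tested probes only was added after seeing the data. Scripts were tested on simulated data. Python 3.11.15, pandas 2.3.3, numpy 2.4.6, matplotlib 3.10.9, R 4.3.3 and limma 3.58.1 were used.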

Additional observations from a re-analysis of the deposited data

How the results depend on the processing

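With 1 array for each genotype no replicate could be left out. No paired analysis was possible because each genotype has 1 array. Over the 12 alternatives 974 values stayed within their error or within 1.5 times the count, 41 moved further and 0 changed sign among those that met the criteria. Normexp correction with quantile normalisation gave −3.45 for *Gjb6* and −0.93 for *Gjb2*. With detection required on both arrays, 456 probes and 332 genes of the whole array were higher and 0 large-pore genes met the criteria. With the Z-score over all probes, 654 probes and 455 genes were lower. With ratio limits of 2 and 0.5, 573 probes and 427 genes were lower, and 453 probes and 338 genes were higher. In both of these settings 2 member genes, *Gjb6* and *Gjb2*, met the criteria for lower in place of 3. The number of member genes that met the criteria for higher was 0 in all 12. The cause of these shifts was not tested. Dim probes limit the comparison, and those at background on both arrays have no measured ratio. The falls of the coding *Gjb6* probe and of *Gm4491* are lower bounds on the reported scale only. Under normexp correction their log2 ratios were −1.02 and −0.39.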
